A study of Mus musculus with 7 samples.

Results

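Tissue macrophage marker genes are described here in regulatory T (Treg) cells that lack or keep Pggt1b. The set holds 34 gene symbols, among them Csf1r, Mrc1, Mpeg1, Spic and Mertk, taken as markers of the macrophages of spleen and lymph node, out of 21902 genes with a symbol on the array. All 34 were found, each by 1 probe set, so no choice between probe sets was needed. The symbols were chosen by their role as markers and selected on earlier KO against Het values of these same 7 arrays, including the order of the KO arrays. The KO minus Het differences and that order are therefore given as a description, and nothing is read from how many of its genes passed the test.

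The samples were CD4+ YFP+ Treg cells sorted from the spleen and pLN of mouse chimeras carrying Foxp3Cre, which expresses Cre recombinase in Foxp3-expressing cells. Pggt1b encodes the catalytic beta subunit of an enzyme, protein prenyl transferase GGTase-I, which attaches a lipid to small GTPases and other proteins. The 3 KO samples carried Pggt1bfl/fl and the 4 Het samples Pggt1bfl/wt, so both groups carried Foxp3Cre and at least a single floxed allele, and no sample had Pggt1b wild type on both alleles. Neither the labels nor the design text give the age of the mice, the make-up of the chimeras or the number of animals behind a sample.

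Tissue macrophages are resident phagocytes. They depend on signals through the CSF1 receptor and on the transcription factor PU.1, the product of Spi1. In the spleen, red pulp macrophages clear aged red blood cells and recycle their iron, while macrophages of the marginal zone and of the lymph node sinuses take up particles from blood and lymph. Their shared equipment includes receptors for dying cells, scavenger receptors, Fc receptors that bind antibody-coated particles, and adaptors with an immunoreceptor tyrosine-based activation motif (ITAM). Treg cells are lymphocytes and are not known for this equipment, and several of these genes are also active in dendritic cells, monocytes, B cells, NK cells or stroma.

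Levels are the authors' RMA values on the log2 scale, where a difference of 1 is a doubling. The background floor of each array, the 95th percentile of its olfactory receptor probe sets, lay between 5.48 and 5.77. Pggt1b itself lay between 6.59 and 6.62 on KO arrays and between 6.71 and 7.11 on Het arrays, a difference of -0.37 ± 0.13 (SE, limma adjusted p = 0.126). Whether its probes fall inside the deleted exons was not known here, so this checks the labels only in part. Of 13083 genes above the floor on at least 3 arrays, 333 were called higher in KO (2.55%) and 424 lower (3.24%) by limma at an adjusted p under 0.05. After median centring of the arrays the split was 406 higher against 291 lower. Of 13 measured Treg and T cell markers none was called in either direction; Foxp3 read 11.16, 11.36 and 11.19 in KO replicates 1 to 3 and 11.01, 11.22, 11.24 and 11.23 in Het replicates 1 to 4, and Cd3e 11.54 to 11.60 against 11.59 to 11.70. The labelled cell type thus carried its defining markers on every array. Even so, every KO array was below every Het array for 5 of these 13 markers (Cd3g, Cd3d, Lck, Zap70 and Cd28). The opposite separation held for 0 of the 13. Among all 21902 genes, 1625 had all KO arrays below all Het arrays. Cd28 had the widest difference of the 5, -0.58 ± 0.16 (SE, limma adjusted p = 0.0608). KO replicate 1 stood apart in the macrophage genes, so results that rest on it are also given without it.

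Of the 34 macrophage genes, 23 passed the filter on dim genes and 15 of those were called higher in KO, against the 2.55% of all tested genes, while 0 were called lower in limma's test, against 3.24% (0 lower under every alternative run). Of the 23 genes tested, 4 (Fcgr4, Mertk, Mrc1 and Cd14) passed the filter through the KO arrays alone, with no Het array above the floor. Csf1r, Epb41l3, Siglec1, Fcer1g, Tgfbi and Mpeg1 had only 1 or 2 Het arrays above it and needed KO arrays to reach 3. Of the 11 genes not tested, 7 exceeded the floor on at least 1 KO array and 4 on none of the 7 arrays. Over all 34 genes the median difference was 1.28, and 0.88 without KO replicate 1, beside -0.02 and 0.01 over the genes tested. In 20 of the 34 all KO arrays lay above all Het arrays, as they did for 6.83% of all genes on the array. The 20 include Pparg, Clec4n, Cd5l and Aif1, which had every Het array and some KO arrays below the floor. Their separation thus rests in part on background values. Without KO replicate 1, 13 macrophage genes were called higher beside 1.84% of all genes, and without both KO replicate 1 and Het replicate 1, 14 beside 1.54%. In a bulk sample a different number of cells of a type and a different amount of RNA per cell cannot be told apart.

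**Figure D1:**
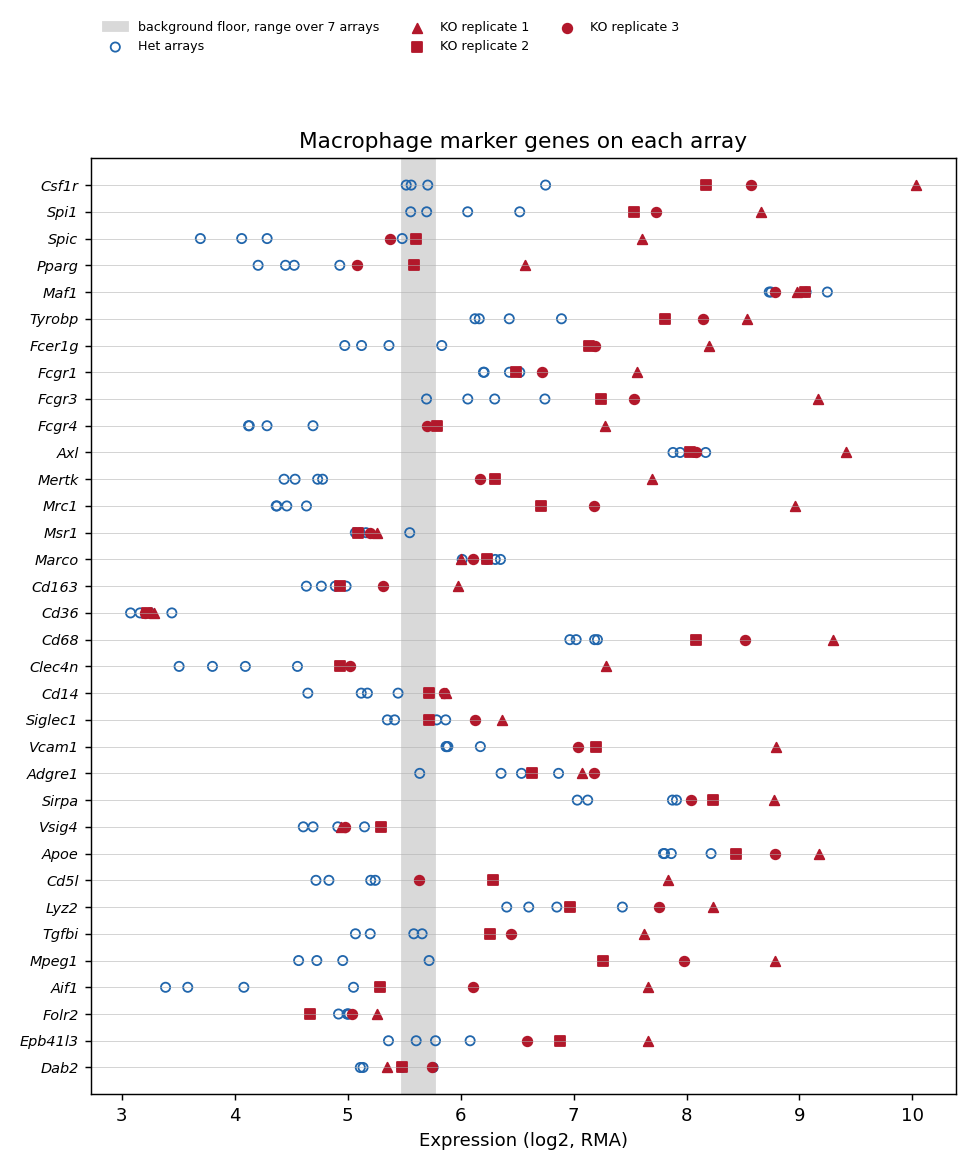
Expression on the log2 scale (horizontal axis) of the 34 macrophage marker genes on each of the 7 arrays, with KO replicates as filled red symbols, Het arrays as open blue circles and the background floor as a grey band from 5.48 to 5.77. KO replicate 1 is the rightmost point for most genes, at 10.03 for Csf1r, while Marco, Maf1, Msr1 and Cd36 show KO and Het arrays interleaved.

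The growth factor receptor Csf1r, which receives the survival signals CSF1 and IL-34, read 10.03, 8.17 and 8.57 in KO replicates 1 to 3 and 6.75, 5.56, 5.71 and 5.52 in Het replicates 1 to 4. The KO arrays were all above the Het arrays, of which 2 of 4 exceeded the floor, and each genotype had a single array that stood above the rest. The difference was 3.04 ± 0.42 (SE of the fit), an 8.22-fold change, and 2.48 ± 0.32 without KO replicate 1.

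Among the transcription factors, Spi1, the master regulator PU.1, read 8.66, 7.54 and 7.73 in KO and 6.52, 6.06, 5.70 and 5.56 in Het cells. Its groups did not overlap, at a difference of 2.01 ± 0.28 with all KO arrays and 1.67 ± 0.25 without replicate 1. Spic, which mouse red pulp macrophages need for their development, read 7.61, 5.60 and 5.37 in KO and 5.48, 4.29, 4.06 and 3.70 in Het cells. Only KO replicate 1 exceeded the floor, KO replicate 3 lay below Het replicate 1, and the gene was not tested. Against the floor its KO mean was at least 1.46-fold higher, a bound that rests on KO replicate 1 alone. Pparg, a lipid-sensing nuclear receptor with a role in macrophages, read 6.57, 5.59 and 5.08 in KO and 4.21, 4.45, 4.53 and 4.93 in Het cells. Here too KO replicate 1 alone was above the floor. The groups did not overlap, but the values of all other arrays were background and have no measured order. Maf1, a symbol in the set, encodes a repressor of RNA polymerase III that is active in most cells and is not a macrophage marker. It read 8.98, 9.05 and 8.79 in KO and 9.06, 8.73, 8.75 and 9.25 in Het cells, with overlapping groups and a difference of -0.01 ± 0.15.

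PU.1 binds DNA at purine-rich sites with the letters GAGGAAGT or close to them. The promoter windows of RefSeq (GRCm38.p6), which run from 250 bases before to 50 bases after a gene's start, were available for 23 of the 34 genes and were searched on both strands for GAGGAAGT and for its core GAGGAA, which lies inside the longer motif. The long form was found for 1 of the 23 genes, Fcgr4, and for 3.69% of all 27025 genes with a window. The core was found for 13 of 23 (56.5%) and for 31.3% of all genes. Of the 13, Apoe, Cd68, Fcgr3, Fcgr4 and Mrc1 were called higher in KO. Aif1, Axl, Cd5l, Dab2, Fcgr1, Marco, Pparg and Vsig4 were not called or not tested. A relation between a core and the KO minus Het difference was not tested. A gene with several starts has several windows and so more room for a match. A match describes the letters, not a bound site. The windows of 3 genes with a core are printed because Fcgr4 holds the long form, Mrc1 had no Het array above the floor and Cd68 was above the floor on every array. Capitals mark the motif, which reads TTCCTC or ACTTCCTC where it lies on the opposite strand.
Fcgr4, chr1:171018676-171018975, plus strand: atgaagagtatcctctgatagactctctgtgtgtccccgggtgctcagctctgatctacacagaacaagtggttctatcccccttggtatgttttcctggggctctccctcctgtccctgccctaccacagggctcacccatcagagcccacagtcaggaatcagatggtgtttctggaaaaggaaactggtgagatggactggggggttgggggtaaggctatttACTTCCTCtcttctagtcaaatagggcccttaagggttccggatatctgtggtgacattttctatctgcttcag
Mrc1, chr2:14229164-14229463, plus strand: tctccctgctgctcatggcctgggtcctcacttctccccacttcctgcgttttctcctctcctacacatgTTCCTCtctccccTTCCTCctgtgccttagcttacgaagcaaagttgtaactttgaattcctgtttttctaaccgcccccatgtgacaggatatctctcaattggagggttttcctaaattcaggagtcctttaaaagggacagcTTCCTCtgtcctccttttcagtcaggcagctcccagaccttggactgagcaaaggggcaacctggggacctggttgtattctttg
Cd68, chr11:69666121-69666420, minus strand: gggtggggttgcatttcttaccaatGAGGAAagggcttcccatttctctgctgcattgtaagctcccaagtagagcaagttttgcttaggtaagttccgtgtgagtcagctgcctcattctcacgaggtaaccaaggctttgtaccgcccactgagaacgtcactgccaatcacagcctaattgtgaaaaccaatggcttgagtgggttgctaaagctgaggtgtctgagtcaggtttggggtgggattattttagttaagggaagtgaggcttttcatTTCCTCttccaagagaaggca
The core within the Fcgr4 match begins 22 bases before the start, and Mrc1 holds 3 cores, the nearest beginning 35 bases before it. In Cd68 a core begins 225 bases before the start and another 29 bases after it.

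The ITAM adaptors and Fc gamma receptors form a signalling unit in phagocytes: Fcer1g is the gamma chain that Fcgr1, Fcgr3 and Fcgr4 need for signalling, and Tyrobp (DAP12) serves receptors such as TREM2. Tyrobp read 8.54, 7.81 and 8.15 in KO and 6.89, 6.43, 6.13 and 6.17 in Het cells, and Fcer1g 8.20, 7.13 and 7.19 against 5.83, 5.37, 5.12 and 4.97. For both adaptors every KO array was above every Het array, by at least 0.92 for Tyrobp and 1.30 for Fcer1g. The differences were 1.76 ± 0.21 and 2.18 ± 0.27, and 1.58 ± 0.22 and 1.84 ± 0.22 without KO replicate 1. Tyrobp was above the floor on all arrays, Fcer1g on 1 of 4 Het arrays.

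Of the receptors, Fcgr3, a low-affinity IgG receptor that NK cells also carry, read 9.17, 7.25 and 7.53 in KO and 6.75, 5.70, 6.30 and 6.06 in Het cells. Fcgr4, which binds IgG2 subclasses in the mouse, read 7.28, 5.79 and 5.71 against 4.69, 4.29, 4.13 and 4.12. Both sets of arrays were fully separated, and in both genes KO replicate 1 lay far above the other KO arrays, by 1.78 and 1.53. Fcgr4 was below the floor on all Het arrays, so its KO mean was at least 1.52-fold higher. Fcgr3 differed by 1.78 ± 0.40, and by 1.19 ± 0.25 without KO replicate 1. Its call was lost without Het replicate 2 (1.61), Het replicate 3 (1.81) or Het replicate 4 (1.73). The high-affinity receptor Fcgr1 read 7.56, 6.49 and 6.72 in KO and 6.20, 6.21, 6.43 and 6.52 in Het cells. KO replicate 2 lay inside the Het range, and the difference of 0.59 ± 0.22, or 0.27 ± 0.15 without KO replicate 1, did not pass the threshold. Of the 3 IgG receptors, Fcgr1 was thus the only one whose KO and Het arrays overlapped.

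Mertk and Axl are related receptor kinases with which macrophages bind dying cells through the bridging proteins GAS6 and protein S. Mertk read 7.69, 6.30 and 6.18 in KO and 4.73, 4.44, 4.78 and 4.53 in Het cells. All Het arrays were below the floor and close together, so the KO mean was at least 2.10-fold higher. Axl read 9.42, 8.03 and 8.09 in KO and 7.94, 8.17, 8.07 and 7.88 in Het cells. KO replicates 2 and 3 lay inside the Het range and only replicate 1 above it, and Axl was the only gene of the 34 with that arrangement. Its difference was 0.49 ± 0.29 with all arrays and 0.04 ± 0.13 without KO replicate 1.

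Among scavenger and pattern receptors, the mannose receptor Mrc1 (CD206) read 8.96, 6.71 and 7.18 in KO and 4.46, 4.64, 4.37 and 4.37 in Het cells. The Het arrays were all below the floor and close to each other, and the lowest KO array stood 2.08 above the highest of them. The KO mean was at least 3.90-fold higher; the fitted difference, which rests on Het values below the floor, was 3.16 ± 0.41, and 2.48 ± 0.16 without KO replicate 1. The lysosomal glycoprotein Cd68 read 9.29, 8.08 and 8.52 in KO and 7.21, 7.19, 7.02 and 6.97 in Het cells. It was above the floor on all arrays with no overlap, at 1.54 ± 0.23, or 1.20 ± 0.16 without KO replicate 1. Cd14, the co-receptor for bacterial lipopolysaccharide, read 5.87, 5.72 and 5.85 in KO and 5.45, 4.65, 5.12 and 5.17 in Het cells. Its KO arrays lay close to the floor and differed by little from each other, and its call was lost without any of the KO replicates (0.69, 0.76 and 0.70 without replicates 1, 2 and 3) or Het replicates 2, 3 or 4 (0.57, 0.72 and 0.74).

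Clec4n, the fungal receptor dectin-2, read 7.29, 4.93 and 5.02 in KO and 4.56, 3.80, 3.51 and 4.09 in Het cells, above the floor in KO replicate 1 alone. The haemoglobin scavenger receptor Cd163 read 5.97, 4.94 and 5.32 in KO and 4.63, 4.89, 4.77 and 4.99 in Het cells, also above the floor only in KO replicate 1. The signal of both genes therefore rests on a single array. Marco, a scavenger receptor of marginal zone macrophages, was above the floor on every array but overlapped fully, at 6.01 to 6.24 in KO and 6.01 to 6.35 in Het cells. The class A scavenger receptor Msr1 (5.10 to 5.26 in KO, 5.07 to 5.55 in Het) and the fatty acid translocase Cd36 (3.20 to 3.28 and 3.08 to 3.44) were below the floor on all 7 arrays.

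Of the adhesion and surface genes, Vcam1, an adhesion molecule of red pulp macrophages and also of stroma and endothelium, read 8.79, 7.20 and 7.04 in KO and 6.17, 5.87, 5.88 and 5.89 in Het cells. The groups were separated, with KO replicate 1 high by 1.67 over the mean of the other KO arrays, and the difference was 1.73 ± 0.34, or 1.17 ± 0.14 without it. Sirpa, which receives the CD47 signal that spares healthy cells from uptake, read 8.78, 8.24 and 8.04 in KO and 7.88, 7.13, 7.03 and 7.91 in Het cells. Its KO arrays were above all Het arrays, but its difference of 0.86 ± 0.25 did not pass the threshold. Adgre1 (F4/80), a standard surface marker of mouse macrophages, read 7.08, 6.63 and 7.18 in KO and 6.54, 5.64, 6.87 and 6.36 in Het cells. These groups overlapped, and it was above the floor on every Het array; the difference was 0.61 ± 0.25. Siglec1 (CD169), which marks metallophilic macrophages of the marginal zone and subcapsular sinus macrophages, read 6.37, 5.72 and 6.12 in KO and 5.42, 5.87, 5.35 and 5.79 in Het cells, with overlap. The complement receptor Vsig4 was below the floor throughout, at 4.94 to 5.29 in KO and 4.61 to 5.15 in Het cells.

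The secreted and lipid-handling genes all had positive differences, of unequal size. Cd5l, a secreted survival factor made by mouse red pulp macrophages among others, read 7.84, 6.28 and 5.64 in KO and 5.24, 4.72, 5.20 and 4.83 in Het cells. It was above the floor in KO replicates 1 and 2 alone and was not tested, with a KO mean at least 1.91-fold higher. Apoe, the lipid carrier, read 9.17, 8.44 and 8.78 in KO and 8.22, 7.80, 7.81 and 7.87 in Het cells. It was well above the floor on every array and separated by a narrow margin of 0.22, and its difference of 0.88 ± 0.18 lost its call when KO replicate 1 (0.69) or 3 (0.88) or Het replicate 2 (0.83) or 3 (0.84) was left out. Lysozyme 2, Lyz2, which neutrophils and monocytes also make, read 8.23, 6.97 and 7.76 in KO and 7.43, 6.60, 6.41 and 6.85 in Het cells. Het replicate 1 exceeded KO replicate 2, and the difference of 0.83 ± 0.30 did not pass. The matrix protein Tgfbi read 7.63, 6.26 and 6.45 in KO and 5.59, 5.66, 5.20 and 5.07 in Het cells, with no overlap and 1 of 4 Het arrays above the floor. Its difference was 1.40 ± 0.29, with the call lost without Het replicate 3 (1.34), and 0.98 ± 0.19 without KO replicate 1.

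Of the remaining genes, Mpeg1 (perforin-2), a pore-forming protein of phagocytes that B cells also express, read 8.79, 7.26 and 7.98 in KO and 5.72, 4.73, 4.57 and 4.96 in Het cells. The lowest KO array was 1.54 above the highest Het array. The difference was 3.02 ± 0.34, or 2.63 ± 0.32 without KO replicate 1, but only 1 of 4 Het arrays exceeded the floor. The fitted size thus rests mostly on Het values below the floor. Aif1 (IBA1), an actin-binding protein of macrophages and microglia, read 7.66, 5.29 and 6.11 in KO and 5.05, 4.08, 3.58 and 3.39 in Het cells. It was above the floor in KO replicates 1 and 3 and in no Het array, and so was not tested. The membrane skeleton protein Epb41l3 read 7.66, 6.88 and 6.58 in KO and 6.08, 5.36, 5.61 and 5.78 in Het cells. It was separated between the groups, at 1.33 ± 0.24, or 1.03 ± 0.20 without KO replicate 1, with 2 of 4 Het arrays above the floor. The folate receptor Folr2 lay below the floor on all arrays (4.67 to 5.26 in KO, 4.92 to 5.01 in Het), and the endocytic adaptor Dab2 exceeded it on KO replicate 3 alone (5.35 to 5.75 in KO, 5.11 to 5.76 in Het).

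**Figure D2:**
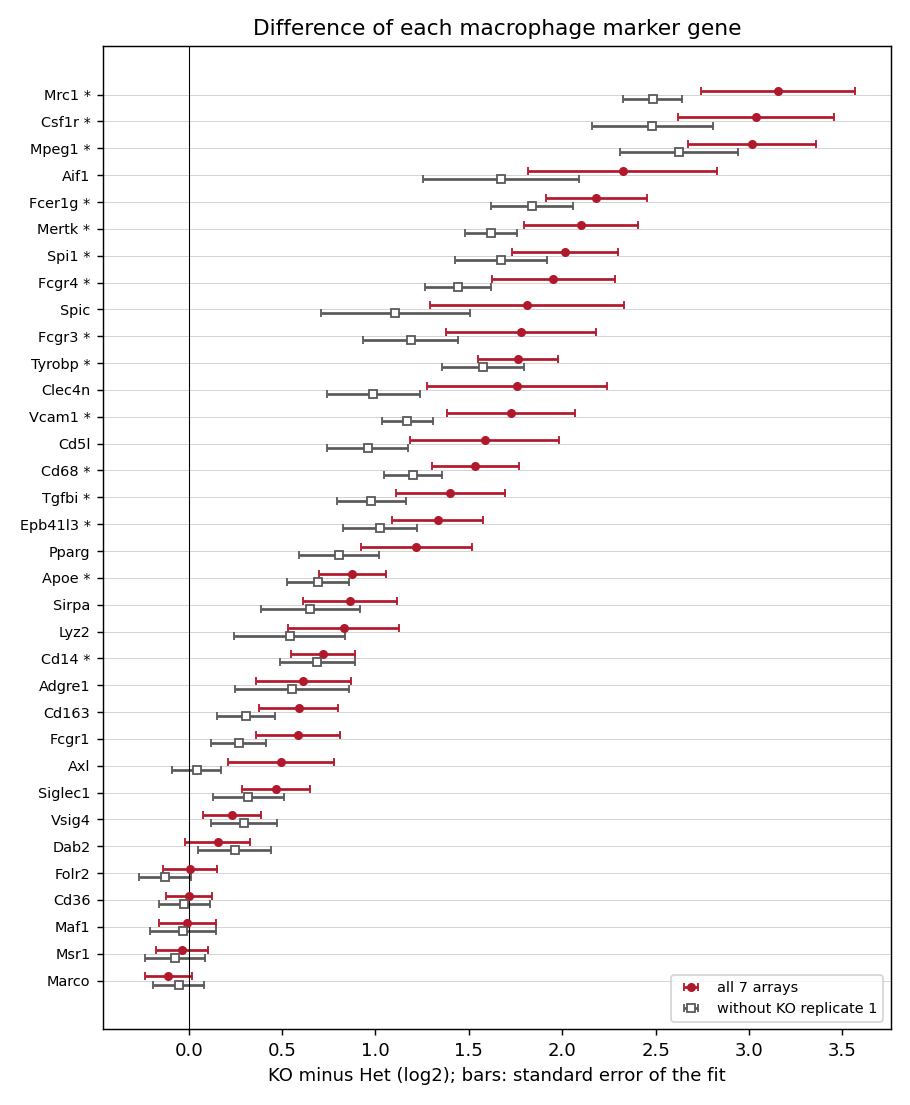
KO minus Het difference on the log2 scale (horizontal axis) of the 34 genes with the standard error of the fit as bars, for all 7 arrays (red circles) and without KO replicate 1 (grey squares); an asterisk marks the 15 genes called higher. Mrc1, Csf1r and Mpeg1 lie at 3.02 to 3.16 with all arrays and at 2.48 to 2.63 without KO replicate 1, and Axl falls from 0.49 to 0.04. Of the 4 Het arrays, 0 were above the floor for Mrc1, 2 for Csf1r and 1 for Mpeg1.

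Most of the set had the same highest KO array. KO replicate 1 was the highest KO array for 20 of the 23 genes tested, beside 27.3% of all genes tested and 45.6% of the 318 genes called higher that are not in the set. It led by more than 0.1 for 19 of them. Over all 34 genes it was highest for 29, a count that includes Msr1, Cd36 and Folr2, whose values below the floor have no measured order. The median excess of KO replicate 1 over the mean of the other KO arrays was 0.99 for the 23 genes and -0.07 for all genes tested. Mrc1 (2.01), Fcgr3 (1.78), Vcam1 (1.67) and Csf1r (1.66) had a wide excess, Cd14 (0.08) and Adgre1 (0.17) little. Clec4n and Spic exceeded the floor on KO replicate 1 alone, so the size of their excess was not measured. The exceptions among the genes tested were Adgre1, highest in KO replicate 3, and Maf1 and Marco, highest in KO replicate 2. In each of these genes the KO and Het arrays overlapped.

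The other KO arrays were not ranked alike by all genes. Of the 23 genes tested, KO replicate 3 exceeded replicate 2 by more than 0.1 for 14 and the reverse held for 6, with 3 within 0.1. Lyz2 (0.79), Mpeg1 (0.71), Adgre1 (0.55), Mrc1 (0.47), Cd68 (0.44) and Csf1r (0.40) were higher in replicate 3. Epb41l3 (-0.30), Maf1 (-0.26), Sirpa (-0.20), Vcam1 (-0.16), Marco (-0.13) and Mertk (-0.13) were higher in replicate 2. Of the genes not tested, Spic and Pparg were below the floor on both arrays, so their order there was not measured.

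**Figure D3:**
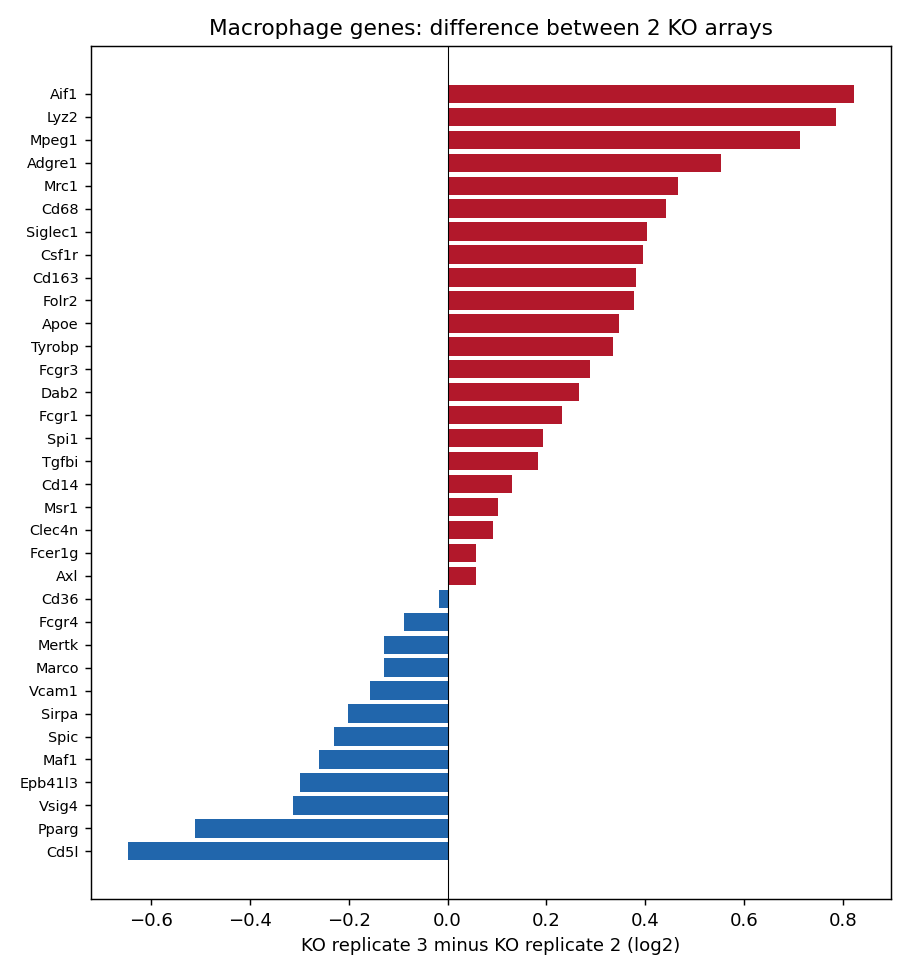
KO replicate 3 minus KO replicate 2 on the log2 scale (horizontal axis) for each of the 34 genes, sorted, with red bars for genes higher in replicate 3 and blue bars for genes higher in replicate 2. The bars run from 0.82 for Aif1 to -0.65 for Cd5l, each below the floor on 1 of the 2 arrays.

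The haemoglobin genes Hba-a1 and Hbb-bt were highest on the same KO array as most of the macrophage genes. Of the 12 genes of the erythroid and platelet list, 3 were highest on that KO array. Among the Het arrays both haemoglobin genes were highest in replicate 4. The haemoglobin gene Hba-a1 read 10.38, 9.71 and 7.49 in KO replicates 1 to 3 and 7.40, 6.91, 7.53 and 9.17 in Het replicates 1 to 4, and Hbb-bt 11.39, 10.44 and 8.10 against 8.38, 6.90, 8.39 and 10.04. KO replicate 3 lay inside the Het range for both, and neither passed with all arrays (limma adjusted p = 0.254 and 0.304). Without KO replicate 3, Hba-a1 was called higher, at 2.29 (adjusted p = 0.0426) against 1.43 with all arrays. The summed erythroid and platelet signal was 5198, 3590 and 1650 in KO replicates 1 to 3 and 1376 to 3161 in Het cells. Whether red cell material had a part in the macrophage values was not tested.

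The Het arrays also differed among themselves in these genes. Of the 19 genes with a Het array above the floor, Het replicate 1 was the highest Het array for 12. It was also the highest for 12 of the 15 genes called higher, beside 44.3% of the 318 called genes outside the set and 29.4% of all genes tested. It led by more than 0.1 for 11 of the 15, beside 31.4% and 17.7%. Both counts include Fcgr4 and Cd14, whose Het values were all below the floor and have no measured order. The excess of Het replicate 1 over the mean of the other Het arrays was 1.16 for Csf1r, 0.81 for Lyz2, 0.75 for Spi1 and 0.65 for Tyrobp, but 0.15 for Cd68 and -0.19 for Fcgr1. Across the 19 genes the excess of KO replicate 1 and the excess of Het replicate 1, which share no array, correlated at Pearson's r = 0.38 and Spearman's rho = 0.39. Across the 318 called genes outside the set r was 0.30 and rho 0.20. Over the 15 called genes of the set alone r was -0.07, and over the 23 tested 0.18. These are correlations across genes of the same few arrays, and genes are not independent replicates.

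**Figure D4:**
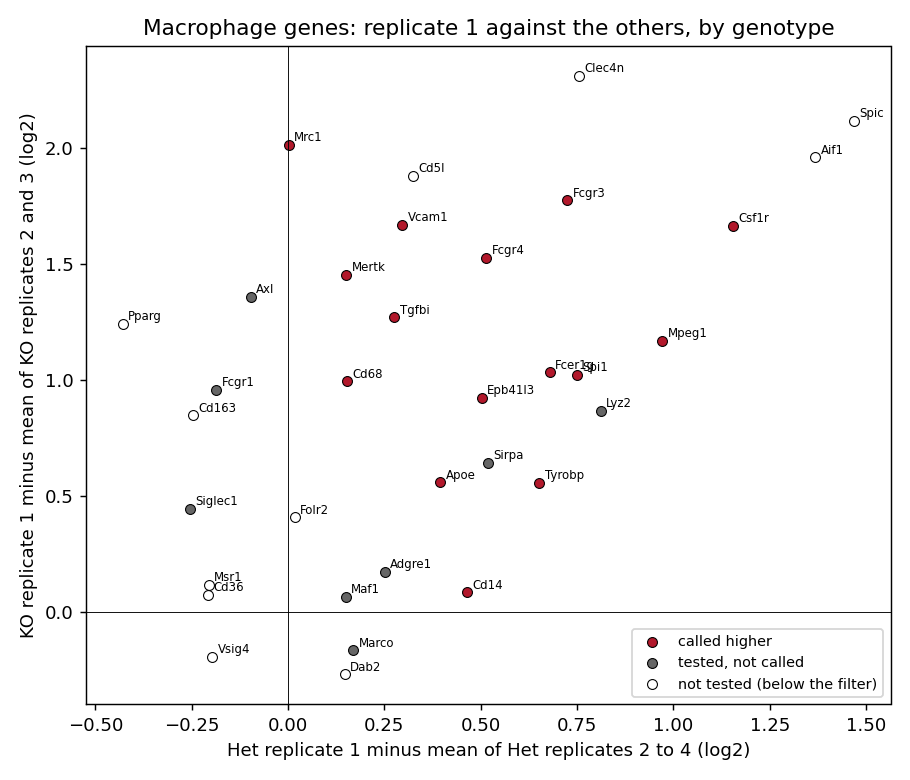
Excess of Het replicate 1 over the mean of Het replicates 2 to 4 (horizontal axis, log2) and of KO replicate 1 over the mean of KO replicates 2 and 3 (vertical axis, log2) for the 34 genes; red points were called higher, grey points tested and not called, white points below the filter. Csf1r lies high on both axes, at 1.66 and 1.16. Horizontal positions of genes with no Het array above the floor, such as Spic, Aif1, Mrc1 and Mertk, are background values.

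The ligands and signalling partners of these receptors were taken from separate lists. The CSF1 and GM-CSF ligand list also holds Gas6, Pros1 (protein S) and the receptor kinase gene Tyro3. Of its 5 tested genes, Pros1 and Tyro3 among them, 1 was called lower and 0 higher, beside 3.24% and 2.55% of all tested genes. The gene was Csf1, the ligand of the CSF1 receptor, which read 6.04, 7.01 and 7.13 in KO and 8.62, 8.53, 8.88 and 8.45 in Het cells. All KO arrays were below all Het arrays, and KO replicate 1, the array with the most Csf1r signal, had the least Csf1. The difference was -1.90 ± 0.24 (SE, limma adjusted p = 0.00118), and it passed without KO replicate 1 as well, at -1.55 (adjusted p = 0.0014). The other ligand of the receptor, Il34, lay between 5.85 and 6.34 in KO and between 6.01 and 6.41 in Het cells and did not pass (adjusted p = 0.775). Csf2, which encodes GM-CSF, was below the floor throughout.

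Of 25 genes of Fc receptor and ITAM signalling, 14 were tested. Of these, 6 were called higher (Syk, Fgr, Lyn, Blnk, Pik3ap1 and Pirb) and 0 lower, beside 2.55% and 3.24% of all tested genes. The kinase Syk, which binds phosphorylated ITAMs, read 7.90, 8.09 and 7.73 in KO and 7.19, 7.00, 7.39 and 7.38 in Het cells. Its groups were separated, but KO replicate 1 was not its highest array, at a difference of 0.66 ± 0.14 (adjusted p = 0.0206). The Src family kinase Fgr read 6.39, 6.07 and 6.54 in KO and 5.28, 5.67, 5.88 and 5.37 in Het cells (0.78 ± 0.17, adjusted p = 0.0255). Syk did not pass when KO replicate 1 (0.67) or 2 (0.57) or Het replicate 1 (0.65) or 2 (0.58) was left out. Fgr did not pass when KO replicate 1 (0.75) or 3 (0.67) or Het replicate 1 (0.69) or 4 (0.72) was left out.

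In a further list of 40 macrophage genes outside the set, 29 were tested, at a median difference of 0.60 over the 40. This list was chosen with the earlier results known, as the set was, and is no independent support for it. Of the 29, 14 were called higher and 0 lower, beside 2.55% and 3.24% of all tested genes. The complement C1q chains, which macrophages secrete, were among them. C1qa read 10.54, 8.87 and 8.93 in KO and 7.68, 6.54, 6.95 and 6.08 in Het cells (2.63 ± 0.43, adjusted p = 0.00544), and C1qb 8.92, 7.41 and 7.15 against 6.34, 5.80, 6.07 and 5.95 (1.79 ± 0.35, adjusted p = 0.0133). C1qc read 7.82, 5.95 and 6.52 in KO and was below the floor on all Het arrays, at least 2.16-fold higher (adjusted p = 0.0346). The 3 chains, like Csf1r and Mrc1, were highest in KO replicate 1. Without it the differences were 2.09, 1.24 and 0.90, at limma adjusted p = 0.0138, 0.0048 and 0.0264. The C1qc call was lost without KO replicate 3 (1.55) or any of Het replicates 1 to 4 (1.51, 1.40, 1.39 and 1.43). Clec4f, Stab1, Stab2, Lyve1, Cd209b, Gpnmb, Trem2 and Gas6 were below the floor on all 7 arrays. Trem2 encodes a receptor that signals through the Tyrobp adaptor, and Gas6 a bridging ligand of Mertk and Axl; both were thus below the floor on the KO arrays that carried Tyrobp and Mertk.

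Markers of other cell types were measured beside the set. Their counts of called genes stand beside 2.55% of all tested genes called higher and 3.24% called lower. The summed linear signal of the 34 genes was 4358 to 9593 on the KO arrays and 2393 to 3093 on the Het arrays. For plasmacytoid dendritic cell markers it was 4494 to 5384 and 2811 to 3171, and 5 of 11 tested were called higher and 0 lower. Siglech, a surface lectin of these cells, read 8.49, 7.93 and 8.71 in KO and 6.36, 6.13, 6.23 and 6.06 in Het cells (2.18 ± 0.18, adjusted p = 0.00015). Ly6d read 7.45, 7.94 and 8.28 in KO and 6.97, 6.55, 6.81 and 6.92 in Het cells (1.08 ± 0.19, adjusted p = 0.00776), while Bst2 did not pass (0.44 ± 0.16, adjusted p = 0.16). Both called markers were highest in KO replicate 3, not in replicate 1, so the plasmacytoid markers named here and the macrophage genes did not order the KO arrays alike.

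Beside the 2.55% of all tested genes, 3 of 7 tested conventional dendritic cell markers were called higher (Itgax, Cd209a and H2-DMb2). These markers, as a whole list, summed to 1432 to 1736 in KO and 746 to 880 in Het cells. Their lineage factor Zbtb46 lay between 5.68 and 6.29 in KO and between 5.85 and 6.26 in Het cells and did not pass (adjusted p = 0.967), and Flt3 and Xcr1 were below the floor on all arrays. Monocyte markers summed to 6322 to 6804 in KO and 4810 to 5276 in Het cells, with 3 of 7 tested called higher (Ly6c2, Ms4a4c and Treml4, the last also in the further macrophage list). Ms4a4c differed by 0.82 ± 0.18 (limma adjusted p = 0.0249), and by 0.73 without KO replicate 1, where it did not pass (adjusted p = 0.0914). Treml4 differed by 2.36 ± 0.37 (adjusted p = 0.004). Ly6c2, which lymphocytes also express, read 8.65, 8.68 and 9.21 in KO and 7.86, 7.48, 7.36 and 7.39 in Het cells (1.32 ± 0.17, adjusted p = 0.00153). Ccr2, the receptor that brings monocytes out of the marrow, was above the floor on no KO array and 2 of 4 Het arrays. Vcan did not pass (adjusted p = 0.806).

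Most neutrophil markers were at background: 9 of 12, S100a8, S100a9 and Ly6g among them, were below the floor on all 7 arrays. The other 3 were tested and 0 were called. Of these, Csf3r was above the floor on all 7 arrays, at 6.51 to 7.02 in KO and 5.74 to 6.83 in Het cells. B cell markers summed to 674 to 813 in KO and 658 to 774 in Het cells with 0 of 6 tested called; Cd79a (0.14 ± 0.14) and Cd79b (-0.25 ± 0.13) did not pass. Of 12 NK and CD8 T cell markers 6 were tested, with 3 called higher (Cd8b1, Eomes and Tyrobp, a member of the macrophage set) and Nkg7 lower. The NK receptors Ncr1, Klrb1c and Klrk1 were below the floor on all arrays. Stromal and endothelial markers gave 0 of 4 called, with Col1a1 at 7.00 to 7.43 in KO and 7.33 to 7.64 in Het cells, erythroid and platelet markers 0 of 9 with all arrays, and plasma cell markers 0 higher and 1 lower of 4 (Prdm1, which effector Treg cells also express). Treg and T cell markers summed to 24833 to 27840 in KO and 27669 to 29097 in Het cells, lowest in KO replicate 1. The part of dendritic cell, monocyte or red cell signal in the macrophage values was not tested.

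**Figure D5:**
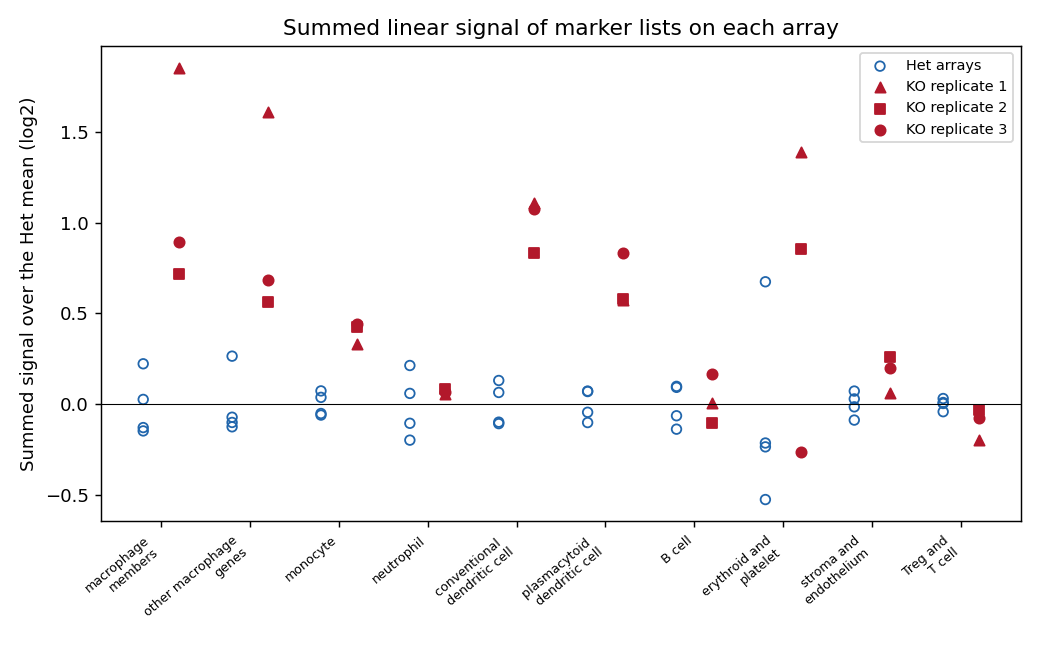
Summed linear signal of each marker list on each array over the mean of the Het arrays (vertical axis, log2), with KO replicates as filled red symbols and Het arrays as open blue circles. KO replicate 1 stands above the other KO arrays for both macrophage lists and for the erythroid list, and by little for the conventional dendritic cell list. Among the KO arrays the plasmacytoid, monocyte and B cell lists are highest in KO replicate 3.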

How the data were processed

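Gene expression of 7 sorted Treg samples (3 KO, 4 Het) was measured on single-colour arrays. Per the labels' protocols, small amounts of total RNA were amplified and labelled with NuGEN kits, and amplification can add to the spread. The deposited log2 values, per the submitters' processing notes, were made with RMA in Affymetrix Expression Console 1.1. RMA is meant to equalise the distributions of the arrays, so a shift of most genes would be reduced. The deposited arrays were not fully equal: their medians ran from 5.93 (KO replicate 1) to 6.12 (Het replicate 4). Neither array design nor genome build was stated, so no probe coordinates are printed.

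Of 28846 probe sets 22203 carried a gene symbol. Where a gene had several, the probe set with the highest mean stood for it. The test was limma (version 3.58.1, R version 4.3.3; lmFit, eBayes, Benjamini-Hochberg) over the 13083 genes that exceeded on at least 3 arrays a floor set at the 95th percentile of 1117 olfactory receptor probe sets. The SE of a gene below this filter comes from a fit of all genes. Where a group had no array above the floor, its values below the floor were set to the floor, and the ratio is written as at least that fold. The script was tested on simulated data. The number of arrays limits the precision.

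Groups come from the genotype labels and replicate numbers from accession order, which pairs nothing. Whether samples came from separate animals is not stated, and the p-values then reflect only the spread among the 7 samples, possibly technical. No batch is given in the labels. The macrophage genes, gene lists, named genes (all 34 members and the first 3 genes of each list, of which some are not reported here) and tests were chosen with earlier results of these data known; other list members were named after their values were seen. Of the listed genes, Lilrb4 was matched through a synonym, and Trac and Igkc were not found. The alternatives were median centring, quantile normalization, no filter or a stricter one (99th percentile), the mean of probe sets, array weights, an intensity trend and leaving out each replicate. Leaving out KO replicate 1 and Het replicate 1 together was added after the data were seen.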

Additional observations from a re-analysis of the deposited data

Results flagged for a closer look

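Of 73 named genes, 6 had a Het array whose gap to the nearest other Het array filled most of the range of the group; chance alone gives about 1 such gene in 20. Het replicate 1 was high for Csf1r at 6.75 (the other Het arrays lay at 5.52 to 5.71), for Vcam1 at 6.17 (5.87 to 5.89) and for Apoe at 8.22 (7.80 to 7.87). The same array was low for Foxp3 at 11.01 (11.22 to 11.24). Het replicate 4 was high for S100a9 at 5.63 (5.14 to 5.19), below the floor of that array, and Het replicate 2 was low for Cd79a at 6.60 (6.81 to 6.84). The groups of 3 KO arrays were not examined in this way.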

How the results depend on the processing

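No paired analysis was possible because the labels give no shared replicate numbers. Of the 15 macrophage genes called higher, 9 were called under each of 15 alternatives (1 of them added after seeing the data); 0 were called lower under any. The exceptions were Fcgr4 and Mertk, removed by the stricter filter, Tgfbi and Cd14, removed by it and lost without single arrays, and Apoe and Fcgr3, lost without single arrays. Leaving out 1 array gave 11 to 15 called macrophage genes, and the stricter filter 11. Aif1 was also called with no filter, Sirpa with array weights, with an intensity trend and without Het replicate 4, and Lyz2 without KO replicate 2.

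Over all genes, array weights gave 547 higher and 697 lower. Leaving out 1 array gave 209 to 290 higher and 240 to 455 lower. The count of higher genes fell by more than 1.5 times without KO replicate 3 (209) or Het replicate 3 (210), and that of lower genes with KO replicate 2 (247), KO replicate 3 (271), Het replicate 2 (248) or else Het replicate 3 (240) left out; fewer samples were fitted in each. Without KO replicate 1 and Het replicate 1 together, an alternative chosen after seeing the data, 202 were higher and 227 lower. KO replicate 1 was highest among KO arrays for 31 macrophage genes after median centring and 29 after quantile normalization. Genes below the floor have no measured order.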
